A study of Mus musculus with 4 samples.

Results

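The 9 genes described here encode the core of the MLL3/4 complex and its closest relatives among the histone methyltransferases, and they were chosen by name out of the 32285 genes counted. Kmt2c and Kmt2d encode the enzymes MLL3 and MLL4. Kdm6a, Paxip1 and Ncoa6 encode subunits found with these enzymes. Kmt2a, Kmt2b, Setd1a and Setd1b encode the catalytic subunits of the related MLL1, MLL2, SETD1A and SETD1B complexes. Bone marrow cells were taken 10 weeks after transplantation and sequenced as 4 single-cell 5′ libraries made with 10x Genomics chemistry, 1 per group. The groups were CD45.2+Kit+ cells labelled control, CD45.2+Kit+ cells labelled Mll3/4 deleted, CD45.2+Kit+ cells labelled Mll3/4SI, and control CD45.2+B220lo cells. Every group thus came from transplanted marrow and carried CD45.2, an allele-specific surface marker that commonly separates donor cells from the host's. The labels also name the libraries wt, dKO, dKI and B220lo. They give no Cre driver, strain, sex, age of the mice or number of mice per library, and they do not spell out SI.

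The MLL3/4 complex places monomethyl marks on lysine 4 of histone H3, mainly at enhancers, and KDM6A, also called UTX, removes methyl marks from lysine 27 of the same histone. MLL1 and MLL2 act more at promoters and at developmental genes such as the Hox clusters, and the SETD1 complexes provide most trimethylation of lysine 4 at active promoters. In blood, MLL1 is known for its role in stem cell maintenance and as the target of leukemic fusions, and KMT2C, KMT2D and KDM6A are recurrently mutated in blood cancers. The title of the series sets loss of both MLL3 and MLL4 against loss of the enzymatic function of their complexes, and the transcript levels of the complex itself were examined here in that setting.

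Levels are given in CPM, the UMIs of a gene per 1000000 UMIs summed over the cells of a group, with an exact 95% Poisson interval. Ratios of CPM carry an exact conditional 95% binomial interval. Both cover counting error only, since no group had a second library, and no difference between groups was tested. A ratio at or past 1.5 in either direction was counted as a difference of note among genes with at least 100 UMIs in both groups together. The share of all such genes past the same ratio is given beside each count, except for counts under other settings. Levels of different genes were not compared, because the kit counts fragments near the transcript start.

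After filtering, 11051 control, 13747 deleted, 11501 SI and 15380 B220lo cells were kept, with median totals of 11594, 6507, 11969 and 3246 UMIs per cell. Each pair of libraries shared 178 to 292 barcodes among kept cells. Lineage gates were set on UMIs per cell, at least 1 of Hlf for stem and progenitor cells, 10 of Elane for granulocyte progenitors, 10 of Car1 for erythroid progenitors and 3 of Cd79a for the B lineage. A cell could pass several gates. The Hlf, Elane and Car1 gates held 2493, 4223 and 2288 control cells, 186, 554 and 62 deleted cells, and 3238, 3345 and 869 SI cells. The Cd79a gate held 12591 deleted and 10839 B220lo cells, but only 47 control Kit+ and 28 SI cells, in which Kmt2c had 20 and 17 UMIs and Kmt2d 7 and 3. With the 58 Hlf and 102 Elane cells of the B220lo library, 13 groups had the 50 cells required for a comparison.

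Marker sums are given for the Elane and Car1 gates. Their lists include the gating gene itself, so high sums were in part set by the gate. No sum of stem or progenitor genes is given for the Hlf gate, so its makeup was not checked by them. The Hlf, Elane and Car1 gates of the deleted library also held more B-lineage transcripts than those of the control. Summed levels of 5 granulocyte and monocyte genes in the Elane gate were 42742 CPM in control, 47377 in deleted and 47985 in SI cells. Summed levels of 5 erythroid genes in the Car1 gate were 4750, 5268 and 5034 CPM. Summed levels of 6 B-lineage genes were 43.0, 52.6 and 8.55 CPM in the control Hlf, Elane and Car1 gates, against 659, 599 and 317 CPM in the same gates of the deleted library, where 5 of the 6 had UMIs and Ms4a1 had 0. Of the 186 deleted Hlf cells, 24 also passed the Cd79a gate and 68 the Elane gate. The part of these transcripts in the ratios below was not tested beyond the values given for cells without any Cd79a UMI.

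The 3 members with the lowest deleted over control ratios in both the Hlf and the Elane gate were Kmt2c, Kmt2d and Kdm6a, while in the Car1 gate Setd1a and Paxip1 had lower ratios than Kmt2c and Kmt2d. Their upstream sequences are shown with that of Kmt2a, the only relative past 1.5-fold between whole deleted and control Kit+ libraries, where cell makeup differed. Each is the 250 bases before the RefSeq transcript start in GRCm38.p6, with capitals marking the letters GGGCGG or CCGCCC, known as a GC box, and CACGTG, an E box.

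Kmt2c, chr5:25498784-25499033, minus strand: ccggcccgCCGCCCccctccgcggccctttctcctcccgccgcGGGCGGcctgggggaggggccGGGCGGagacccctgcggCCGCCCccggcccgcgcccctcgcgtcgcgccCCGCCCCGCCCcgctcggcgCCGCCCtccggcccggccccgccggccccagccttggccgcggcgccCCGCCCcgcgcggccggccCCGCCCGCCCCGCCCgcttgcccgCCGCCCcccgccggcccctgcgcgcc

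Kmt2d, chr15:98871206-98871455, minus strand: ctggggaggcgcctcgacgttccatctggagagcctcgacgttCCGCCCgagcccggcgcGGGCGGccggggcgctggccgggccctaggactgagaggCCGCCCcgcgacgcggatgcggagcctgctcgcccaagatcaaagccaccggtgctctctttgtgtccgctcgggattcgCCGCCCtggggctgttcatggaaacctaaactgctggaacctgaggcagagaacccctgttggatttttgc

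Kdm6a, chrX:18162325-18162574, plus strand: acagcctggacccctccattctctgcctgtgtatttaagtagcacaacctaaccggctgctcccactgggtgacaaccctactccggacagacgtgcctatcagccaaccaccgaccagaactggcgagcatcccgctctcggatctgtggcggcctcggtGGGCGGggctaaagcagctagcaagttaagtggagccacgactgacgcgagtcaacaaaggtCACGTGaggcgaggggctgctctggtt

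Kmt2a, chr9:44881290-44881539, minus strand: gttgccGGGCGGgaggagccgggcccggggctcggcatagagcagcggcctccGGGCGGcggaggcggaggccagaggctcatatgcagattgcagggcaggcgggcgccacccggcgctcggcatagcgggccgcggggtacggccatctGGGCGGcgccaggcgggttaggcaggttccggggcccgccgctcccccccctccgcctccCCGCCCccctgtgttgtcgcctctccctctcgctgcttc

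The window of Kmt2c held 48 CpG and 12 GC boxes, overlapping ones counted, in a sequence of 91.6% G and C. Kmt2d held 26 CpG and 4 GC boxes, and Kmt2a 29 CpG and 4 GC boxes. Kdm6a held 15 CpG, 1 GC box and 1 E box. Of 32851 windows of the same length in the RefSeq table, 32.7% held a GC box and 6.02% an E box, on either strand, and the median was 6 CpG. All 4 windows held a GC box, so this motif did not separate Kmt2a from the other 3. No CCAAT letters (33.8% of windows) and no CCGGAAG letters (6.91%) were found in these 4 windows. The table matched 7 of the 9 genes, and Kmt2b and Setd1b were not among them. Of the matched genes not shown, Paxip1 held 2 GC boxes and Ncoa6 and Setd1a 0 each. The windows of Ncoa6 (chr2:155440784-155441033) and Setd1a (chr7:127777139-127777388) lay inside the gene spans given below. They therefore do not describe the sequence before the outermost start of these genes.

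In the control Kit+ library, Kmt2c, Kmt2a, Kdm6a and Setd1b were each higher in the Hlf gate than in the Elane or Car1 gates, with intervals that did not overlap. These were 4 of 9 members, and 22.8% of 11475 genes tested stood above both gates in the same way. The gates were not matched for depth, with medians of 10314 UMIs in Hlf, 14418 in Elane and 17161.5 in Car1 cells. The part of depth in the differences between gates was not tested. Genes at large were more often lower than higher in the committed gates, 14.9% against 5.22% being 1.5-fold or more from Hlf in Elane cells and 28.8% against 10.5% in Car1 cells. Kmt2c, which lies at chr5:25271798-25498783 in GRCm38, was at 69.4 CPM (66.4 to 72.5) in Hlf, 50.9 CPM (49.2 to 52.7) in Elane and 51.7 CPM (49.6 to 54.0) in Car1 cells. Kmt2a, at chr9:44803355-44881296, was at 81.4, 54.3 and 60.8 CPM in the same gates. Kdm6a, on the X chromosome at chrX:18162575-18279936, was at 61.4, 46.4 and 45.3 CPM. Setd1b, at chr5:123142193-123168629, was at 26.2 CPM (24.4 to 28.1), 21.0 CPM (19.8 to 22.1) and 21.5 CPM (20.1 to 22.9).

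The other 5 members did not stand apart from both committed gates in this way. Ncoa6, a nuclear receptor coactivator gene at chr2:155390656-155473894, was also highest in Hlf cells, at 34.4 CPM (32.3 to 36.6) against 27.9 in Elane and 30.6 CPM (29.0 to 32.3) in Car1 cells, but the Hlf and Car1 intervals met. Kmt2b, at chr7:30568858-30588726, was highest in Car1 cells, at 28.4, 24.7 and 31.7 CPM. Kmt2d, at chr15:98831669-98871204, was at 26.2 CPM in Hlf and 25.2 CPM in Elane cells, with overlapping intervals, and at 21.4 CPM (20.01 to 22.8) in Car1 cells. Setd1a, at chr7:127776670-127800122, was highest in Car1 cells, at 37.1 CPM (35.3 to 39.0) against 30.0 in Hlf and 26.1 in Elane cells. Paxip1, at chr5:27740080-27791691, was at 30.6, 30.1 and 32.1 CPM, and these 3 intervals overlapped. The Car1 over Hlf ratio was 1.24 (1.14 to 1.34) for Setd1a, 1.12 (1.02 to 1.22) for Kmt2b and 0.747 (0.706 to 0.790) for Kmt2a. Between these gates 39.3% of 11637 genes tested differed by 1.5-fold or more.

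**Figure D1:**
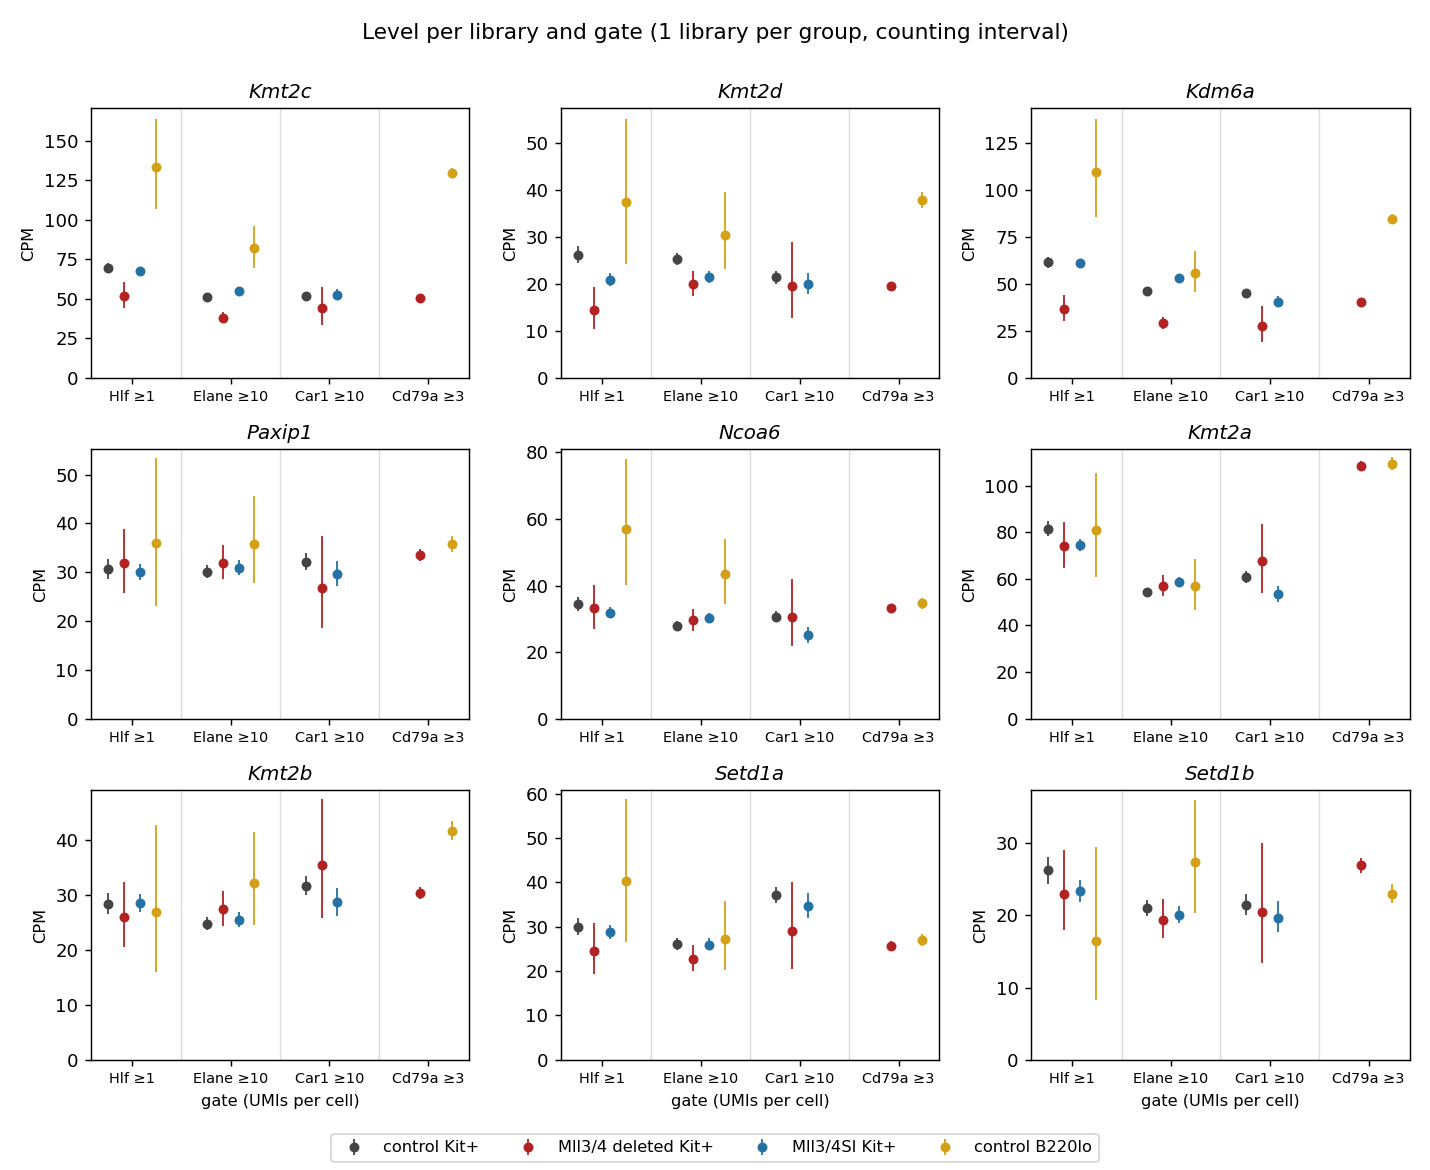
Level of each member in CPM (vertical axes, each from 0) in the 4 lineage gates (horizontal axes), with 1 point per library that had at least 50 cells in the gate and bars for the 95% Poisson interval of counting error. Kmt2c, Kmt2d and Kdm6a of the deleted library sit lowest among the Kit+ libraries in the Hlf and Elane gates and lie far below the B220lo library in the Cd79a gate, while Paxip1 stays between 26.8 and 35.9 CPM in all groups shown.

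The enzymes targeted by the design were counted at lower levels in Hlf cells of the deleted library than in those of the control and were still counted there. Kmt2d was at 26.2 CPM (24.4 to 28.2) in control, 14.4 CPM (10.5 to 19.4) in deleted and 20.9 CPM (19.6 to 22.3) in SI Hlf cells, the deleted value resting on 44 UMIs. The deleted over control ratio was 0.550 (0.396 to 0.746). Kmt2c was at 69.4 CPM in control, 51.8 CPM (44.1 to 60.6) in deleted and 67.7 CPM (65.3 to 70.3) in SI cells, and its deleted over control ratio was 0.747 (0.631 to 0.878). Control and SI intervals overlapped for Kmt2c but not for Kmt2d. Counts from a 5′ kit come from near the transcript start, so transcripts lacking a later part of the gene can still be counted and the labels' deletion was not checked by them.

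In the Elane gate both enzymes were again lower in deleted cells. Kmt2c was at 50.9 CPM in control, 37.9 CPM (34.3 to 41.7) in deleted and 54.7 CPM (52.8 to 56.7) in SI cells, a deleted over control ratio of 0.744 (0.670 to 0.825). Kmt2d was at 25.2, 19.95 and 21.4 CPM in the same order, with a deleted over control ratio of 0.791 (0.683 to 0.911). In Car1 cells the intervals of both ratios included 1, at 0.852 (0.641 to 1.11) for Kmt2c and 0.920 (0.592 to 1.37) for Kmt2d, with 56 and 25 UMIs in the 62 deleted cells.

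These ratios moved with the depth of the cells compared. Deleted Hlf and Elane cells were deeper than control cells, with medians of 15920.5 and 19854 against 10314 and 14418 UMIs, and the CPM of Kmt2c, Kmt2d and Kdm6a was highest in shallow Elane cells. In Elane cells with at least 20000 UMIs, a band drawn after these values were seen, Kmt2c was at 27.5 CPM in 274 deleted cells against 51.3 CPM in 586 control cells, a ratio of 0.536 (0.456 to 0.628). At 10000 to 20000 UMIs it was at 39.4 against 43.4 CPM, a ratio of 0.907 (0.756 to 1.08). At 5000 to 10000 UMIs, with 55 deleted cells, it was at 195 against 104 CPM, a ratio of 1.87 (1.45 to 2.38). In that shallow band 59.9% of 6922 genes tested differed by 1.5-fold or more, against 9.46% of 9951 genes in the deepest band. Intervals lay above 1 for 5 of the 9 members in the shallow band, among them Kmt2a at 1.83 (1.38 to 2.39), where 35.1% of all genes had intervals above 1, and below 1 for 4 of 9 in the deepest, where 21.4% of all genes had intervals below 1. Over all Elane cells of 5000 to 20000 UMIs the ratio was 1.14 for Kmt2c and 1.01 for Kmt2d, so the lower level of both enzymes was seen in Elane cells of at least 20000 UMIs and not over those of 5000 to 20000. Kmt2d ratios in the 3 bands, from shallow to deep, were 2.11 (1.40 to 3.10), 0.782 (0.592 to 1.02) and 0.652 (0.530 to 0.797).

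In Hlf cells both enzymes had ratios below 1 in the 2 depth bands that could be compared, and the band of 5000 to 10000 UMIs, in which the Elane ratios lay above 1, held only 35 deleted cells and was not. Kmt2d was at 14.5 CPM in deleted against 24.4 CPM in control cells of 10000 to 20000 UMIs, a ratio of 0.592 (0.346 to 0.949), and at 13.9 against 29.1 CPM above that, a ratio of 0.478 (0.290 to 0.749). Kmt2c ratios were 0.913 (0.706 to 1.16) and 0.574 (0.424 to 0.764) in the same bands, and over all Hlf cells of 5000 to 20000 UMIs the ratio was 0.941 for Kmt2c and 0.588 for Kmt2d. In the 108 deleted Hlf cells without any Cd79a UMI the ratio was 0.655 for Kmt2c, 0.642 for Kmt2d and 0.485 for Kdm6a. It was also below 1 for the relatives, at 0.787 for Kmt2a, 0.773 for Kmt2b, 0.748 for Setd1a and 0.836 for Setd1b. The Kmt2a value lay outside its interval over all Hlf cells. Ncoa6 was at 0.931 and Paxip1 at 1.02. In the 313 such Elane cells Kmt2c was at 0.723, Kmt2d at 0.789 and Kdm6a at 0.581. The other members there lay from 0.802 (Setd1b) to 1.14 (Kmt2b), with Kmt2a at 0.942.

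Among the subunits, Kdm6a was lower in deleted cells of all 3 gates. It was at 61.4 CPM (58.6 to 64.3) in control, 36.4 CPM (30.0 to 43.9) in deleted and 60.9 CPM (58.5 to 63.3) in SI Hlf cells. In Elane cells it was at 46.4, 28.9 and 53.0 CPM, and in Car1 cells at 45.3, 27.5 and 40.5 CPM. The deleted value was the lowest of the 3 libraries in each gate, and its interval met neither of the others in Hlf and Elane cells. Deleted over control ratios were 0.593 (0.485 to 0.719) in Hlf, 0.623 (0.553 to 0.699) in Elane and 0.608 (0.422 to 0.848) in Car1 cells. In Elane cells the ratio was 1.07 (0.753 to 1.47) at 5000 to 10000 UMIs, 0.660 (0.526 to 0.819) at 10000 to 20000 UMIs and 0.550 (0.465 to 0.648) above that.

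Kdm6a is X-linked and is known to escape X inactivation, and the deleted library differed from the others in sex-linked transcripts. Xist, which is transcribed from the inactive X, was at 0.350 CPM over all kept deleted cells against 423 CPM in control, 469 CPM in SI and 541 CPM in B220lo cells. Uty, the Y-linked homolog of Kdm6a, was at 42.3 CPM in deleted cells and at 0.207 CPM or less in the other 3 libraries. Within the Hlf, Elane and Car1 gates of the deleted library Uty was at 39.1, 38.8 and 39.4 CPM. Ratios of deleted to control for other X-linked genes known as escapees in the mouse were also below 1. Eif2s3x, a translation initiation factor gene, had ratios of 0.716, 0.669 and 0.626 in the 3 gates, and Kdm5c, an H3K4 demethylase gene, 0.737, 0.788 and 0.671. Ddx3x, an RNA helicase gene, had 0.928, 0.933 and 0.845, with intervals that included 1. For Kdm6a, genotype and sex of the cells cannot be told apart in these libraries. The same limit holds for Kmt2c, Kmt2d and every other gene in ratios of deleted to control cells, since the whole deleted library differed.

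**Figure D2:**
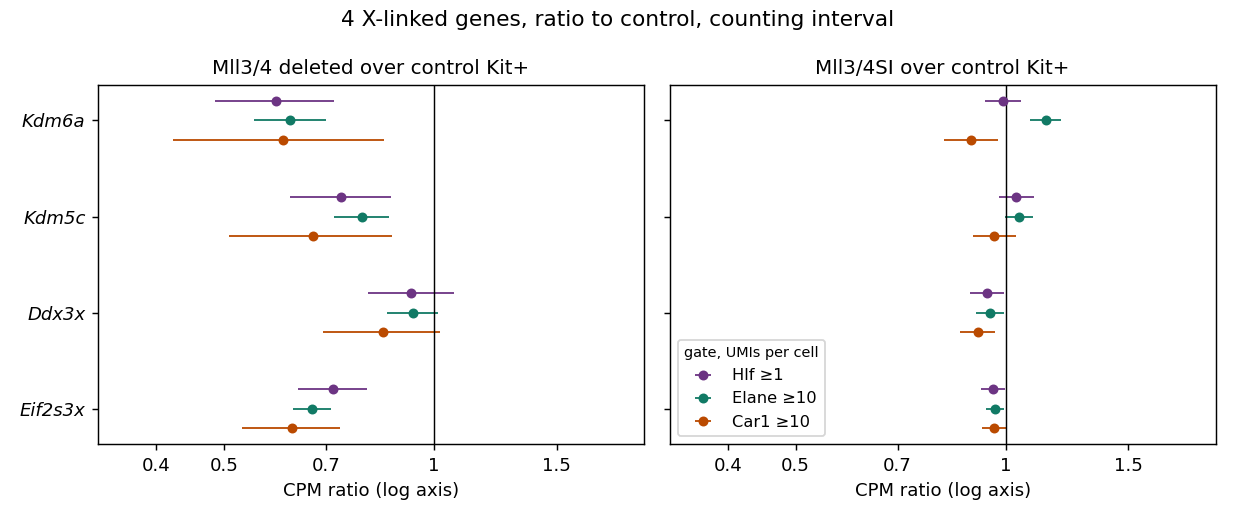
Ratio of CPM to the control Kit+ library on a log axis (horizontal) for Kdm6a and 3 other X-linked genes known to escape X inactivation, in the Hlf, Elane and Car1 gates, with bars for the 95% counting interval. In the deleted library Kdm6a, Kdm5c and Eif2s3x lie below 1 in every gate, with Kdm6a at 0.593 to 0.623, while in the SI library Kdm6a lies on either side of 1.

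The other subunits did not follow Kdm6a. Paxip1, which encodes the PTIP protein, was at 30.6 CPM in control, 31.8 CPM in deleted and 30.0 CPM in SI Hlf cells, and at 30.1, 32.0 and 31.0 CPM in Elane cells. In Car1 cells it was at 32.1, 26.8 and 29.7 CPM. Ncoa6 was at 34.4, 33.1 and 31.8 CPM in Hlf and at 27.9, 29.6 and 30.2 CPM in Elane cells. In Car1 cells it was at 30.6, 30.7 and 25.002 CPM. Every interval of a deleted over control ratio for Paxip1 and Ncoa6 in the 3 gates included 1, the narrowest being 0.944 to 1.19 for Paxip1 and 0.940 to 1.20 for Ncoa6 in Elane cells. Pagr1a, another gene of the complex, had 11 UMIs in control and 2 in deleted Hlf cells, too few for a ratio.

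The 4 related methyltransferases had deleted over control ratios whose intervals included 1 in Hlf cells. Kmt2a was at 81.4 CPM in control, 74.2 CPM in deleted and 74.4 CPM in SI Hlf cells, and the deleted over control ratio was 0.911 (0.791 to 1.04). Kmt2b was at 28.4, 25.9 and 28.5 CPM, a ratio of 0.914 (0.716 to 1.15). Setd1b was at 26.2, 23.0 and 23.3 CPM, a ratio of 0.876 (0.676 to 1.12). Setd1a ratios were 0.819 (0.638 to 1.04) in Hlf, 0.874 (0.762 to 0.999) in Elane and 0.785 (0.550 to 1.09) in Car1 cells, below 1 each time with an upper bound near 1. The Setd1a ratio also moved with depth, at 0.964 (0.658 to 1.37) in Hlf cells of 10000 to 20000 UMIs and 0.628 (0.424 to 0.905) above that, and at 1.11 (0.557 to 2.02), 0.873 (0.679 to 1.11) and 0.779 (0.647 to 0.934) in the 3 bands of Elane cells from shallow to deep.

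In the committed gates the other 3 relatives had intervals that included 1. In Elane cells the deleted over control ratio was 1.05 (0.962 to 1.14) for Kmt2a, 1.10 (0.973 to 1.25) for Kmt2b, at 27.3 against 24.7 CPM, and 0.926 (0.797 to 1.07) for Setd1b, at 19.4 against 21.0 CPM. In Car1 cells it was 1.11 (0.887 to 1.38) for Kmt2a, 1.12 (0.812 to 1.51) for Kmt2b, at 35.4 against 31.7 CPM, and 0.952 (0.619 to 1.40) for Setd1b, at 20.5 against 21.5 CPM. Kmt2a overlaps an antisense gene, AC061963.1, which is a separate row in the files.

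Counted by ratio, Kmt2d and Kdm6a were 1.5-fold or more lower in deleted than in control Hlf cells, 2 of 9 members, where 12.2% of 10941 genes were past that ratio and 8.39% in the lower direction. In Elane cells Kdm6a alone was, 1 of 9 against 11.5% of genes (7.16% lower), and likewise in Car1 cells, 1 of 9 against 15.2% (10.1% lower). Kdm6a was no longer past 1.5-fold in Elane cells of 5000 to 20000 UMIs, at a ratio of 0.766, in Car1 cells with each cell weighted the same, at 0.676, or in Hlf cells at 2 times the gate threshold, at 0.694. Counts of 1 in 9 lie near these background shares. The median log2 ratio of the members was -0.19 in Hlf, -0.11 in Elane and -0.12 in Car1 cells, beside medians of -0.0011, 0.023 and 0.0033 over all genes tested.

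**Figure D3:**
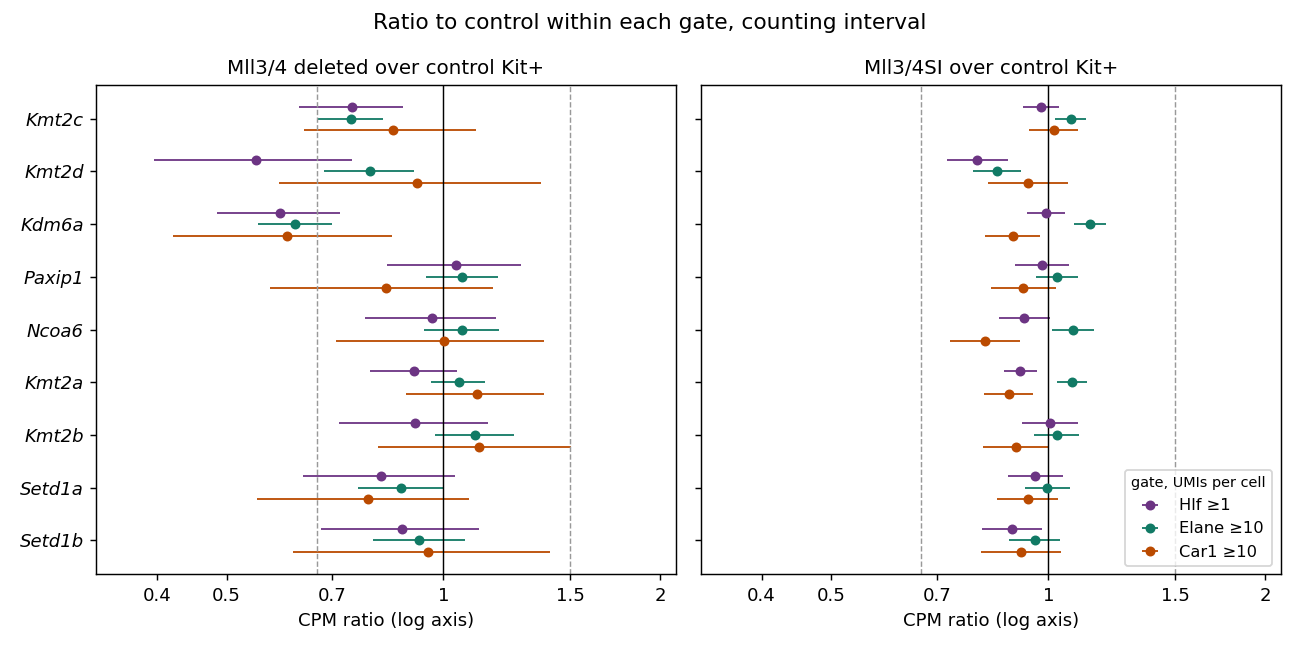
Ratio of CPM to the control Kit+ library on a log axis (horizontal) for the 9 members, left for the deleted and right for the SI library, in the Hlf, Elane and Car1 gates, with bars for the 95% counting interval and dashed lines at 1.5-fold. Kmt2d in Hlf cells (0.550) and Kdm6a in all 3 gates of the deleted library lie past the lower line, and no member of the SI library reaches either line.

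Over whole Kit+ libraries the makeup of cells differed, and 91.6% of kept deleted cells and 0.425% of kept control cells passed the Cd79a gate. Kmt2a was the 1 member of 9 past 1.5-fold, at 106 CPM in deleted against 65.7 CPM in control cells, a ratio of 1.61 (1.57 to 1.66), and 46.1% of 14388 genes were past that ratio. In the Hlf and Elane gates the interval of the Kmt2a ratio included 1. Within the deleted library itself Kmt2a was at 108 CPM in Cd79a cells and at 74.2, 56.9 and 67.7 CPM in Hlf, Elane and Car1 cells.

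In the SI library no member was past 1.5-fold from control in any gate, 0 of 9 each in Hlf, Elane and Car1 cells and over all cells, where 9.11%, 8.66%, 5.04% and 14.3% of genes were. Kmt2d was the member furthest below control in Hlf cells, at 20.9 against 26.2 CPM, a ratio of 0.797 (0.723 to 0.879). Its ratio was 0.849 (0.787 to 0.917) in Elane cells and 0.937 (0.824 to 1.06) in Car1 cells. In the depth bands of Elane cells it was 0.978 (0.771 to 1.24) at 5000 to 10000 UMIs, 0.824 (0.739 to 0.918) at 10000 to 20000 UMIs and 0.789 (0.691 to 0.902) above that.

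Kmt2c did not follow Kmt2d in the SI library, with ratios to control of 0.976 (0.921 to 1.03) in Hlf, 1.07 (1.02 to 1.13) in Elane and 1.02 (0.940 to 1.10) in Car1 cells. Kdm6a was at 60.9 CPM in SI Hlf cells, 53.0 CPM in Elane cells and 40.5 CPM in Car1 cells, with ratios of 0.992 (0.933 to 1.05), 1.14 (1.08 to 1.20) and 0.892 (0.816 to 0.975). In SI Elane cells of 5000 to 10000 UMIs the ratio was 1.55 (1.36 to 1.75) for Kmt2c and 1.49 (1.30 to 1.70) for Kdm6a, in cells of at least 20000 UMIs 0.903 (0.822 to 0.992) and 0.919 (0.833 to 1.01), so the direction for Kmt2c in the Elane gate turned with depth, while the deep interval for Kdm6a included 1. The shallow band had 18.9% of 8488 genes past 1.5-fold and the deep band 6.55% of 10642. Ncoa6 had ratios of 0.927 (0.853 to 1.01), 1.08 (1.01 to 1.16) and 0.817 (0.729 to 0.913) in the same gates. Paxip1, Kmt2b and Setd1a each had ratios whose intervals included 1 in all 3 gates.

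Among the relatives, Setd1b and Kmt2a were also lower in SI than in control Hlf cells. Setd1b was at 23.3 against 26.2 CPM, a ratio of 0.891 (0.810 to 0.9802), and its ratios of 0.958 (0.883 to 1.04) in Elane and 0.916 (0.805 to 1.04) in Car1 cells had intervals that included 1. Kmt2a had ratios of 0.915 (0.867 to 0.965) in Hlf, 1.08 (1.03 to 1.13) in Elane and 0.881 (0.815 to 0.951) in Car1 cells. By depth band of Hlf cells, 0 of 9 members had an SI over control interval below 1 at 5000 to 10000 UMIs. It was 3 of 9 at 10000 to 20000 UMIs and 3 of 9 above that, and 0 had an interval above 1 in any band. Of all genes, 10.9%, 14.8% and 13.4% had intervals below 1 in these bands, and 16.0%, 24.2% and 18.0% had intervals above 1. Deleted and SI ratios share the same control cells, so the 2 sets are not independent.

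A further group of SI cells was examined after its size was seen. At least 10 Cpa3 UMIs, a mast cell and basophil protease, were found in 3139 SI and 424 control cells. Kmt2a was at 63.0 CPM in SI against 80.3 CPM in control Cpa3 cells, a ratio of 0.785 (0.711 to 0.868), and Kmt2d at 19.6 against 24.6 CPM, a ratio of 0.797 (0.666 to 0.960). Kmt2c, at 60.8 against 62.4 CPM, and Kdm6a, at 59.3 against 59.9 CPM, had ratios whose intervals included 1. In these cells 2 of 9 members had intervals below 1 and 0 above, against 16.5% and 20.3% of 11321 genes. Past 1.5-fold were 13.6% of these genes. The Kmt2d ratio was close to that in Hlf cells, which came from the same libraries. Cells passing both the Cpa3 and the Hlf cut were not counted.

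In the B lineage, Kmt2c, Kdm6a and Kmt2d were lower in deleted Kit+ than in control B220lo cells of the Cd79a gate. Kmt2c was at 50.8 CPM (49.4 to 52.2) in deleted and 129 CPM (126 to 132) in B220lo cells, a ratio of 0.392 (0.378 to 0.407). Kdm6a was at 40.1 against 84.4 CPM, a ratio of 0.475 (0.455 to 0.496). For Kdm6a, as for every other gene, genotype and sex of the cells cannot be told apart in this or the further comparisons with B220lo cells. Kmt2d was at 19.6 against 37.9 CPM, a ratio of 0.516 (0.485 to 0.550). These 3 of 9 members were 1.5-fold or more lower, where 45.3% of 13686 genes were past that ratio and 21.2% lower. The median log2 ratio was -0.095 for the members and 0.014 for all genes.

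The other members had ratios nearer 1 in these cells. Kmt2a was at 108 against 109 CPM, a ratio of 0.991 (0.960 to 1.02), and Setd1b at 26.9 against 23.0 CPM, a ratio of 1.17 (1.09 to 1.25). Kmt2b was at 30.3 against 41.6 CPM, a ratio of 0.728 (0.689 to 0.770). Ratios were 0.936 (0.885 to 0.991) for Paxip1, 0.957 (0.904 to 1.01) for Ncoa6 and 0.953 (0.893 to 1.02) for Setd1a. The 2 sides were sorted on different surface markers and were not at one stage of B-cell development. Kit was at 369 CPM in deleted and 7.79 CPM in B220lo Cd79a cells, Vpreb1, a surrogate light chain gene of early B cells, at 2808 against 433 CPM, and Ms4a1, the CD20 gene of later B cells, at 0.602 against 392 CPM.

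Cells with at least 3 Vpreb1 UMIs as well were compared to bring the stages closer, 12172 deleted and 1349 B220lo cells. Kmt2c was at 48.8 CPM (47.4 to 50.2) in deleted and 69.1 CPM (65.1 to 73.2) in B220lo cells, a ratio of 0.706 (0.662 to 0.754). Kmt2d was at 18.8 against 31.0 CPM, a ratio of 0.607 (0.549 to 0.671), and Kdm6a at 39.0 against 69.2 CPM, a ratio of 0.564 (0.528 to 0.603). Kmt2d and Kdm6a, 2 of 9, were 1.5-fold or more lower, where 39.0% of 12833 genes were past that ratio and 14.4% lower. Kmt2c, at 0.706 just short of that ratio, joined them when all deposited barcodes or doublets were kept, when gates were scaled to depth, when each cell was weighted the same and in cells of 5000 to 20000 UMIs. In cells of 5000 to 20000 UMIs Paxip1, at 0.649, was past that ratio as well. The members' median log2 ratio was -0.31, beside 0.028 for all genes.

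In these Vpreb1 cells the other members lay on both sides of 1, and the ratios above 1 moved with depth. Kmt2a was at 106 against 90.3 CPM, a ratio of 1.17 (1.11 to 1.24), Setd1b had a ratio of 1.23 (1.10 to 1.38) and Ncoa6 of 1.14 (1.03 to 1.26). Paxip1 was at 33.1 against 46.6 CPM, a ratio of 0.710 (0.656 to 0.770), and Setd1a had a ratio of 0.805 (0.732 to 0.887). Kmt2b was at 29.9 against 30.9 CPM, a ratio of 0.966 (0.879 to 1.06). In cells of 5000 to 10000 UMIs the ratio was 0.870 (0.762 to 0.998) for Kmt2a, 0.891 (0.676 to 1.20) for Setd1b and 1.10 (0.843 to 1.45) for Ncoa6, and in cells of 10000 to 20000 UMIs it was 1.02 (0.928 to 1.12), 1.29 (1.06 to 1.59) and 0.979 (0.832 to 1.16). Requiring Vpreb1 moved Kmt2c from 129 to 69.1 CPM in B220lo cells and from 50.8 to 48.8 CPM in deleted cells. B220lo cells with at least 1 Ms4a1 UMI and no Vpreb1, a group chosen after the values were seen, carried 156 CPM of Kmt2c, 2.25 times (2.09 to 2.43) the level in B220lo cells with Vpreb1. In that contrast 7 of 9 members had intervals above 1 and 2 below, where 40.5% and 37.7% of 10653 genes did. Of these genes 46.5% were past 1.5-fold, 23.7% being higher. The groups were not matched for depth.

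Cell cycle and depth also differed between the Vpreb1 cells of both libraries, at 524 CPM of Mki67, a cycling marker, in deleted against 836 CPM in B220lo cells, and at medians of 6566 against 9841 UMIs. Both were used to split the cells after the values were seen. Among cells with at least 1 Mki67 UMI the deleted over B220lo ratio was 0.753 (0.698 to 0.812) for Kmt2c, 0.620 (0.554 to 0.695) for Kmt2d and 0.583 (0.540 to 0.629) for Kdm6a. Among cells without Mki67 UMIs it was 0.431 (0.375 to 0.498), 0.452 (0.359 to 0.575) and 0.406 (0.349 to 0.476) for the same genes. In cells of 5000 to 10000 UMIs it was 0.589 (0.502 to 0.696), 0.616 (0.477 to 0.808) and 0.438 (0.374 to 0.516). In cells of 10000 to 20000 UMIs it was 0.593 (0.531 to 0.663), 0.488 (0.412 to 0.580) and 0.445 (0.398 to 0.497). All 3 genes were lower in deleted cells in each of these splits, with intervals below 1. In the same order, 33.5%, 28.8%, 28.6% and 31.1% of all genes tested had intervals below 1. Of the 9 members 5, 4, 5 and 5 did, while 3, 0, 0 and 1 had intervals above 1. The shares of all genes with intervals above 1 were 40.6%, 22.6%, 23.4% and 32.7%. Kmt2c, at 0.753 with Mki67, was not past 1.5-fold. The shares of genes past 1.5-fold were 36.9%, 39.1%, 39.5% and 34.6% either way, and 12.4%, 20.1%, 18.4% and 13.0% lower.

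Kmt2a turned direction with the same split. It was at 102 CPM in deleted against 82.2 CPM in B220lo cells with Mki67, a ratio of 1.24 (1.17 to 1.32), and at 112 against 153 CPM in cells without it, a ratio of 0.729 (0.647 to 0.826). Paxip1 had a ratio of 0.778 (0.716 to 0.846) with Mki67 and 1.33 (0.932 to 1.98) without.

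**Figure D4:**
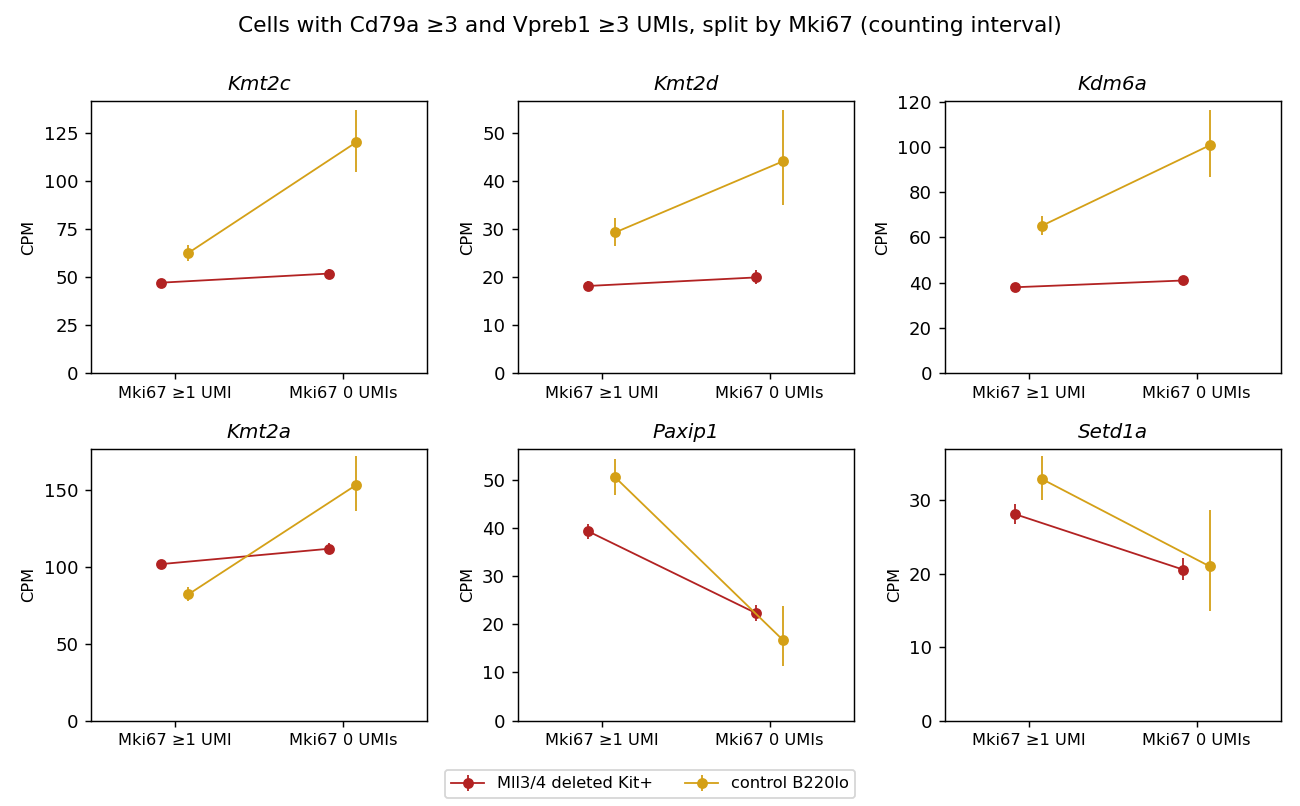
Level in CPM (vertical axes, each from 0) of 6 members in cells with at least 3 Cd79a and 3 Vpreb1 UMIs, split by whether Mki67 had a UMI, with lines joining the 2 subsets of a library and bars for the 95% Poisson interval. Kmt2c, Kmt2d and Kdm6a are lower in the deleted library in both subsets, Kmt2a crosses over, and Paxip1 and Setd1a are higher in the cells with Mki67 in both libraries.

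Paxip1 and Setd1a were higher in cells with Mki67 UMIs in both B-lineage libraries. In B220lo Cd79a cells Paxip1 was at 50.01 CPM with Mki67 and 18.5 CPM without, a ratio of 0.371 (0.333 to 0.412), and in deleted Cd79a cells at 39.7 and 22.8 CPM, a ratio of 0.575 (0.530 to 0.623). Setd1a was at 30.8 and 22.4 CPM in B220lo and at 28.6 and 20.8 CPM in deleted cells, ratios of 0.728 and 0.729. Between these subsets 38.1% of genes in B220lo and 19.7% in deleted cells differed by 1.5-fold or more. PTIP, the product of Paxip1, is also known from the response to DNA damage. Kmt2c went the other way in B220lo cells, at 104 CPM with and 160 CPM without Mki67, a ratio of 1.53 (1.46 to 1.60), while in deleted cells it was at 48.7 and 54.4 CPM, a ratio of 1.12 (1.06 to 1.18). Most members went this way in B220lo cells, 6 of 9 with intervals above 1 and 2 below, against 42.6% and 36.1% of genes. In deleted cells 2 of 9 members had intervals above 1 and 2 below, against 38.0% and 32.1% of genes. Cells with Mki67 were not matched for depth, and the part of depth in these ratios was not tested.

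Outside the B lineage, the B220lo library held 1689 cells with at least 3 UMIs of Siglech, a plasmacytoid dendritic cell gene. Their Kmt2c level was 119 CPM, near that of the library's Cd79a cells, and their Kmt2a level was 64.0 CPM, below it. The library's 58 Hlf and 102 Elane cells carried 133 CPM (107 to 164) and 82.0 CPM (69.5 to 96.0) of Kmt2c, above the 69.4 and 50.9 CPM of the same gates in the control Kit+ library. These cells had B-lineage sums of 1398 and 640 CPM, and 18 and 29 of them passed the Cd79a gate.

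Across the 13 groups, levels varied most for Kdm6a, from 27.5 CPM in deleted Car1 cells to 109 CPM in B220lo Hlf cells (3.97-fold), and for Kmt2c, from 37.9 CPM in deleted Elane cells to 133 CPM in B220lo Hlf cells (3.51-fold). Kmt2d ran from 14.4 CPM in deleted Hlf to 37.9 CPM in B220lo Cd79a cells (2.62-fold). The highest was 2.27 times the lowest for Ncoa6, 2.04 times for Kmt2a, 1.77 for Setd1a, 1.68 for Kmt2b, 1.66 for Setd1b and 1.34 for Paxip1. For Kmt2c the order was B220lo Hlf, B220lo Cd79a and B220lo Elane cells, then control Hlf, SI Hlf, SI Elane, SI Car1, deleted Hlf, control Car1, control Elane, deleted Cd79a, deleted Car1 and deleted Elane cells. Only 2 of the 12 steps in that order had intervals that did not overlap, from B220lo Cd79a to B220lo Elane cells and from SI Hlf to SI Elane cells. For the other members 10 to 12 of the 12 neighbouring pairs overlapped.

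Over these groups Kmt2c and Kdm6a had the most similar pattern among the members, with a Pearson r of 0.94 on log2(CPM + 1). The r was 0.86 for Kmt2c with Kmt2d and 0.82 for Kmt2d with Kdm6a. For Setd1b with these 3 genes it lay between -0.090 and -0.031. The groups share libraries, depth and in part cells, and those of the deleted library differ in sex-linked transcripts. These values therefore describe the pattern and carry no test. Among 5042 genes with at least 20 UMIs in every group, those most like Kmt2c were Atxn7 (r = 0.953), Luc7l2 (0.952), Sik3 (0.950), Spag9 (0.944) and Otulin (0.940). Those most like Kmt2d were Grk6 (0.921), Auh (0.895), Camk1d (0.891), Chd1 (0.887) and Fryl (0.886).

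Other genes of the H3K4 and enhancer machinery were followed as a list of 33, of which 32 had enough UMIs. They comprised shared complex subunits such as Wdr5, subunits of the MLL1/2 and SETD1 complexes such as Men1, and other H3K4 methyltransferases or their relatives. The rest were H3K4 demethylases, Polycomb subunits and a demethylase on the H3K27 side, enhancer coactivators and Pagr1a. None was past 1.5-fold in Hlf or Elane cells, in either the deleted or the SI library against control. Of all genes tested, 12.2% and 11.5% were past it in deleted Hlf and Elane cells, and 9.11% and 8.66% in SI Hlf and Elane cells. The median log2 ratio of the list was -0.079 in deleted Hlf cells and 0.0023 in deleted Elane cells. The nearest in deleted Hlf cells were Ezh1, a Polycomb methyltransferase gene, at 11.8 against 16.96 CPM, and Kdm5c, at 51.2 against 69.5 CPM. In Car1 cells Ezh1 was past 1.5-fold lower and Kdm1b, an H3K4 demethylase gene, higher, both with intervals that included 1. That was 1 of 32 each way, where 10.1% of all genes were lower and 5.11% higher.

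In B-lineage cells more of this list differed, as did more of all genes, and the list's counts were below the shares of all genes. Between deleted and B220lo Cd79a cells 5 of the 32 were 1.5-fold or more lower (Kdm1b, Ezh1, Ezh2, Ep300 and Smarca4) and 6 higher (Dpy30, Men1, Psip1, Bod1, Setd7 and Smyd2), where 21.2% of all genes were lower and 24.1% higher. With Vpreb1 required, 2 of 32 were lower (Ezh2 and Suz12) and 4 higher (Men1, Setd7, Smyd2 and Kdm5b), where 14.4% of all genes were lower and 24.6% higher. Men1, which encodes the menin subunit of the MLL1 and MLL2 complexes, was at 68.4 CPM in deleted and 27.6 CPM in B220lo cells with Vpreb1, a ratio of 2.48 (2.25 to 2.74). Ezh2, the main Polycomb methyltransferase gene, was at 250 against 504 CPM, a ratio of 0.495 (0.483 to 0.508). Over whole Kit+ libraries 2 of 32 were lower in the deleted library (Wdr5 and Smyd3) and 5 higher (Men1, Setd7, Kdm1b, Crebbp and Smarca4), where 21.6% of all genes were lower, 24.5% higher and 46.1% past 1.5-fold either way, and where the makeup of cells differed as given above.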

How the data were processed

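UMI counts per gene and cell barcode were deposited by the authors as raw counts, not normalized, for 4 libraries, made with Cell Ranger 7.1.0 and mm10, per the submitters' processing notes. Gene positions came from GENCODE M21 (32158 of 32285 gene identifiers matched), and upstream sequences from the RefSeq table of GRCm38.p6.

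Cells were kept with at least 1000 UMIs, 500 genes, at most 10% mitochondrial UMIs and a Scrublet score of at most 0.25 (scanpy 1.11.5, expected share 8%), which removed 580 to 1168 doublets per library. UMIs were summed per library and gate and divided by the total. Intervals were exact, Poisson for CPM and Clopper-Pearson for ratios (scipy 1.17.1). Ratios were computed for every gene with at least 100 UMIs in the 2 groups together, and 1.5 was the ratio counted. Ratios and their intervals were tested on simulated data. Among genes simulated without a change, counting error alone put some past 1.5-fold in the deleted over control comparisons. Their share was 9.45% in Car1, 2.40% in Hlf and 0.980% in Elane cells. Kept cells held 139509234 UMIs in control, 111312007 in deleted, 150923616 in SI and 77184735 in B220lo, and interval width follows a gene's UMIs in the gate.

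All 9 members were followed in every gate. Related genes come from fixed lists, and of these the ones past 1.5-fold in the most of 10 comparisons are named, with any counted at 5 or fewer. Ezh1 and Kdm5c in Hlf cells, Bod1, Ep300, Wdr5, Smyd3, Crebbp and Kdm5b fall outside the first part of this rule. They were named after their values were seen. The members and lists were chosen with earlier results of these data known. Depth bands, Mki67, Ms4a1, Cpa3 and Siglech groups, and the cells without Cd79a UMIs, were added after the values were seen. Immunoglobulin contig tables were not used.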

Additional observations from a re-analysis of the deposited data

Results flagged for a closer look

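In 11 of 198 cases, 9 members in 22 pairs of groups, 2 groups of cells lay on opposite sides of 1 under the same contrast, with counting intervals that excluded 1 on both sides. The pairs were gates, depth bands of Hlf, Elane and Vpreb1 cells, Cpa3 cells against the gates, and cells with and without Mki67 UMIs. These are 5.56% of the cases, and 3.66% of the cases of all genes tested in the same pairs did the same, from 0.352% to 16.2% by pair. None of these differences was tested, since each group was 1 library.

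In the SI library the Kmt2a ratio to control was 0.915 in Hlf cells and 1.08 in Elane cells, the former being 0.848 of the latter. It was 0.881 in Car1 cells, and the Elane ratio was 1.23 times that one. The Kdm6a ratio was 1.14 in Elane and 0.892 in Car1 cells, apart by a factor of 1.28. The Ncoa6 ratio was 1.08 in Elane and 0.817 in Car1 cells, apart by a factor of 1.32. In Elane cells of at least 20000 UMIs the Kmt2a and Kdm6a ratios were 0.869 and 0.919, the former below 1 as in Car1 cells and the latter with an interval that included 1.

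Between deleted and B220lo cells with Vpreb1, the Kmt2a ratio was 1.24 with Mki67 UMIs and 0.729 without, apart by a factor of 1.70.

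In 5 cases the sides were depth bands of Elane cells. The deleted over control ratio at 5000 to 10000 UMIs was 3.48 times that at 20000 UMIs or more for Kmt2c (1.87 and 0.536) and 3.24 times for Kmt2d (2.11 and 0.652). The SI over control ratio in the shallow band was 1.71 times that in the deep band for Kmt2c (1.55 and 0.903) and 1.87 times for Kmt2a (1.63 and 0.869). The Kmt2a ratio at 10000 to 20000 UMIs, 1.09, was 1.25 times that in the deep band. In Cpa3 cells the SI over control ratio of Kmt2a was 0.785, which was 0.728 of that in Elane cells.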

How the results depend on the processing

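No paired analysis was possible because each group was 1 library. Of the 792 member ratios under other settings, 700 stayed within the main counting interval and 92 moved out of it, and no called ratio changed side. Raising the ratio counted to 2 left 0 members in the deleted over control comparisons over all cells and in Hlf, Elane and Car1 cells, and 0 in the deleted over B220lo comparison with Vpreb1. With cells of 5000 to 20000 UMIs only, 0 members were past 1.5-fold over all cells and in Elane cells. With Vpreb1, 4 were, namely Kmt2c, Kmt2d, Kdm6a and Paxip1. Weighting each cell the same left 0 in Car1 cells, where the Kdm6a ratio was 0.676. Too few deleted Car1 cells remained for 2 settings, 34 of 5000 to 20000 UMIs and 33 without Cd79a UMIs. Gates at 2 times the thresholds put Kmt2c in place of Kdm6a (ratio 0.694) among the Hlf members past 1.5-fold. No share of all genes is given for a ratio of 2 or for the other settings, so these counts stand without a background. Under the main setting 39.0% of all genes tested were past 1.5-fold in the comparison with Vpreb1. Levels moved more than ratios, 373 of 1071 leaving the main interval.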
